A study of Rattus norvegicus with 8 samples.

Results

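The genes described here encode the machinery that copies DNA in S phase of the cell cycle, and they were chosen by name: 38 genes, each matched to the probes that carry its name on the array. All 38 were found, out of 26204 gene names on the array, of which 21922 could be tested. They were measured by 43 probes, with 33 genes on 1 probe and 5 genes on 2 probes, and the brightest probe of a gene was used. Each of the 38 brightest probes was well above background on all 8 arrays. The accession printed for the probe carried the same symbol in a RefSeq table for 35 of the 38 genes.

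RNA came from whole ovaries of female rats and was hybridised in 1 colour to Agilent rat expression arrays. Per the labels' protocols, the rats were 26 days old when they received 0.2 ml of albumin phosphate buffer under the skin, either alone (labelled control, 4 arrays) or with 50 IU of pregnant mare serum gonadotropin (labelled PMSG, 4 arrays). PMSG acts mainly like follicle-stimulating hormone and is given to make follicles grow. Ovaries were removed 48 h later, at 28 days of age. The titles of the control samples say only that they are a reference without treatment, whereas the protocols give the controls buffer. No strain is given, and the labels do not say whether an array holds RNA of 1 animal or of a pool, so the p-values measure the spread between these arrays only.

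Before S phase, the origin recognition complex, CDC6 and CDT1 load the ring of MCM2 to MCM7 onto DNA, a step called licensing that geminin blocks once replication has begun. CDC45 and the GINS complex turn that ring into an active helicase, DNA polymerase alpha and its primase start each strand, and polymerases delta and epsilon extend it with the sliding clamp PCNA. Ribonucleotide reductase, thymidylate synthase and thymidine kinase supply the deoxynucleotides. Many of these genes are switched on together at the entry to S phase by transcription factors of the E2F family. In the ovary the granulosa cells of growing follicles divide fast, and they leave the cell cycle when they luteinise.

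Of the 38 genes, 14 were lower in the arrays labelled PMSG than in the arrays labelled control at a limma adjusted p under 0.05, and 0 were higher. The share called in either direction, 36.8%, was close to the 34.5% of all genes tested; by direction, 16.5% of all genes were called lower and 18% higher. Drops of at least 0.5 on the log2 scale that passed the test were found for 12 of the 38 genes, against 12% of all genes. Drops of at least 1 were found for 2 of them, Tk1 and Rrm2, against 4.67% of all genes, a share near that of the array as a whole. The median log2 difference (PMSG label minus control label) was -0.29 over the 38 genes and 0.12 over all genes tested. Differences lay below 0 for 32 of the 38 genes, against 41.3% of all genes, and below the median of all genes for 35. All 4 arrays labelled PMSG read below all 4 arrays labelled control for 15 of the 38 genes and above them for 0, against 18.5% of all genes in each direction.

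The direction of the labels needs a caution. Star and Cyp11a1, genes of steroid synthesis, and Lhcgr, the luteinising hormone receptor gene, were lower in arrays labelled PMSG, with log2 differences of -2.75, -3.36 and -1.93 (limma adjusted p = 0.00541, 2.32e-04 and 0.00114), whereas these genes are generally known to rise after gonadotropin. Every direction here is that of the sample titles. Weighting arrays by their deviations gave array PMSG 4 the smallest weight (0.279), and array PMSG 3 had the lowest 75th percentile of signal, 769 against 983 to 1103 on the other arrays. Without array PMSG 4, 16 of the 38 genes were called (15 lower, and Uhrf1 higher), and without arrays PMSG 3 and 4 the number was 12 (11 lower, and Uhrf1 higher). Over all 25303 probes 4206 were called lower and 4452 higher, a split that centring arrays on their median turned to 5534 and 2914, while the replication genes called under that scaling were 19, all lower.

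**Figure D1:**
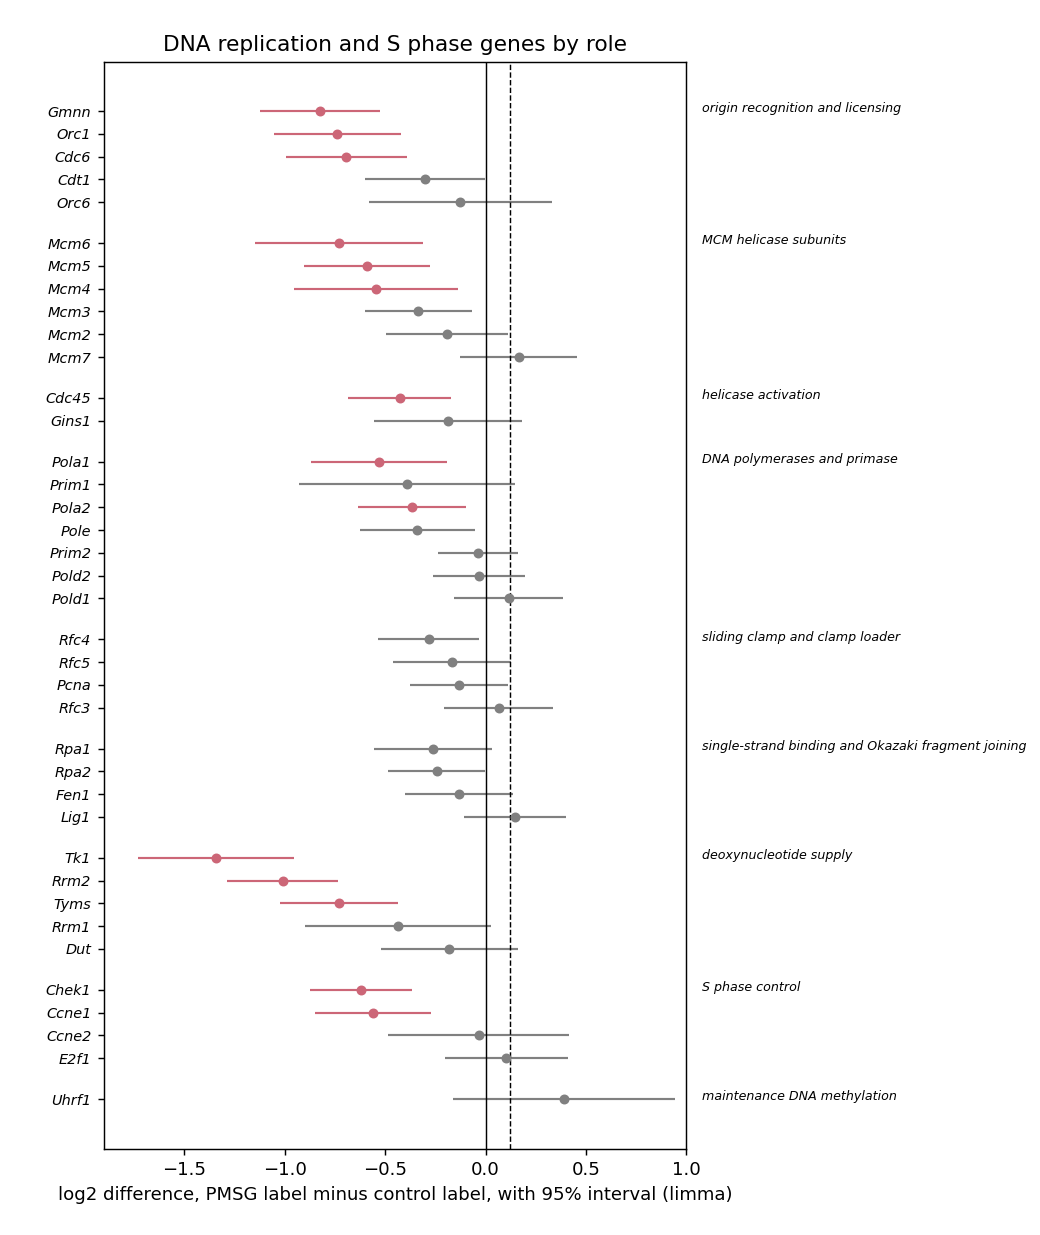
Log2 difference between arrays labelled PMSG and arrays labelled control for each of the 38 genes, grouped by role, with the limma 95% interval; red points passed the adjusted p threshold of 0.05, grey points did not, and the dashed line is the median of all genes tested, 0.12. Genes of licensing and of deoxynucleotide supply lay farthest to the left, with 3 of 5 called in each, and none of the 4 clamp genes or the 4 strand-binding and joining genes passed.

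Promoter sequences are shown for 5 of these genes because E2F proteins are known to act at such sites in genes of S phase, and because the genes shown include members that fell and 1 that did not pass the test. RefSeq windows of the GRCr8 build, from 250 bases before to 50 bases after the annotated start, were at hand for 32 of the 38 genes. They were searched on both strands for 4 E2F-type motifs, TTTGGCGC, TTTCGCGC, TTTCCCGC and TTTGCCGC, which can overlap when they face each other. At least 1 of them was present for 16 of the 32 genes (50%), against 2.37% of all 27457 genes with a window and 3.67% of the 10918 that were tested on the arrays. Matches are in capitals, and each window reads 5′ to 3′ along its gene.
Gmnn promoter window, chr17:40729584-40729883, plus strand: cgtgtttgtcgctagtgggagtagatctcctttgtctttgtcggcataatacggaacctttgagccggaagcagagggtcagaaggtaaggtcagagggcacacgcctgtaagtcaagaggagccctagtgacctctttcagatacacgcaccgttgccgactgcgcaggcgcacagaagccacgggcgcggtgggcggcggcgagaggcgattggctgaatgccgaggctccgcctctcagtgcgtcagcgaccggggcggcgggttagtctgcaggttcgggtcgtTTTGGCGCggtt
Tyms promoter window, chr9:120776034-120776333, minus strand: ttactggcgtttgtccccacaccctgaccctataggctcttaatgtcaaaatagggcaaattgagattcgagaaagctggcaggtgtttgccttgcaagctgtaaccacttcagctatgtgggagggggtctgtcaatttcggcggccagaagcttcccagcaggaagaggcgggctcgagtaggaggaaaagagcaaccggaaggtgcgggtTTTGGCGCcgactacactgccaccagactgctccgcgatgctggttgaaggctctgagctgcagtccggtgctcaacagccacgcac
Mcm5 promoter window, chr19:13488563-13488862, plus strand: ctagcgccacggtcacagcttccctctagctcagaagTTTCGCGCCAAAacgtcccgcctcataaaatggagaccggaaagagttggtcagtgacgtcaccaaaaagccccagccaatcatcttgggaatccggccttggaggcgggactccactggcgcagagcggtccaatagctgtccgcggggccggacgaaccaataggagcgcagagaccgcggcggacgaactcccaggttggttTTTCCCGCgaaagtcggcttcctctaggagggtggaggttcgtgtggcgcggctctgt
Mcm6 promoter window, chr13:42404303-42404602, minus strand: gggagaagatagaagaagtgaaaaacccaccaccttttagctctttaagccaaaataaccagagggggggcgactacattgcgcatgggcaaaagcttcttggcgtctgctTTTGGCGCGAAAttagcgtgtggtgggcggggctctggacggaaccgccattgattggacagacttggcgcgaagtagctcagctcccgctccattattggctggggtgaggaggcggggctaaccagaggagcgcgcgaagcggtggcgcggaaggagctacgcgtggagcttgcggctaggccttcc
Mcm7 promoter window, chr12:22163129-22163428, minus strand: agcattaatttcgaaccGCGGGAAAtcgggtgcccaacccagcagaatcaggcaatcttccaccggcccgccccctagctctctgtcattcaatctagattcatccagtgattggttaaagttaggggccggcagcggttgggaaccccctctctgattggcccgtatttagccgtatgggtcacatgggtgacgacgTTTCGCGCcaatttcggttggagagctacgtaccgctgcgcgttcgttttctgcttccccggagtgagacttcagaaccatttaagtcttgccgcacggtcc
In Mcm6 and in the upstream site of Mcm5 a match on each strand overlaps to form 1 longer run of capitals. By call, 6 of 10 genes that were lower and had a window held a match, and so did 10 of 22 that did not pass the test. Tk1, with the largest drop, had no match, which says only that these letters are not in its window. The pentamer CCAAT, read by the factor NF-Y, was present for 19 of the 32 genes (59.4%) and for 39.6% of all genes.

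Among the genes of deoxynucleotide supply, 3 of 5 were lower and the other 2 did not pass. Tk1 encodes the thymidine kinase that salvages thymidine in dividing cells. Its level (log2 signal minus the array's 75th percentile, as for all levels below) was 2.29, 2.00, 1.91 and 2.23 on control arrays 1 to 4, and 0.76, 0.35, 1.07 and 0.88 on PMSG arrays 1 to 4. All 4 PMSG-labelled values thus lay well under the control-labelled ones, a 2.54-fold drop (-1.34 log2, SE 0.17, limma adjusted p = 7.22e-04). Only 2.52% of all genes tested had a lower difference.

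Rrm2, the small subunit of ribonucleotide reductase whose supply limits the enzyme in S phase, read 4.53, 4.85, 4.49 and 4.82 on the control-labelled arrays and 3.82, 3.57, 3.65 and 3.61 on those labelled PMSG. The probe lies on chromosome 6, 42359210 to 42359269 in build rn4, as for all probe positions below. Rrm2 was 2.02-fold lower, without overlap (-1.01 log2, SE 0.12, limma adjusted p = 5.88e-04). A dimmer Rrm2 probe, at 42357941 to 42358000, fell by 1.26 (SE 0.18, limma adjusted p = 0.00129), also without overlap. Tyms, thymidylate synthase, stood at -1.32, -0.91, -1.37 and -1.14 in arrays labelled control and at -1.76, -2.04, -1.98 and -1.88 in arrays labelled PMSG. Tyms (chromosome 9, 112605733 to 112605792) was 1.66-fold lower without overlap (-0.73 log2, SE 0.13, limma adjusted p = 0.00321).

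Rrm1, the large subunit of the same reductase, did not pass although its groups just failed to overlap: control-labelled values ran from -4.11 to -3.67 and PMSG-labelled values from -4.94 to -4.11, with a log2 difference of -0.44 (limma adjusted p = 0.128). It passed under quantile normalization (-0.65, adjusted p = 0.0102) and median centring (-0.60, adjusted p = 0.0249); its adjusted p reached 0.475 under other settings. Dut, the dUTPase that keeps uracil out of DNA, had a log2 difference of -0.18 with a 95% interval from -0.52 to 0.16.

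**Figure D2:**
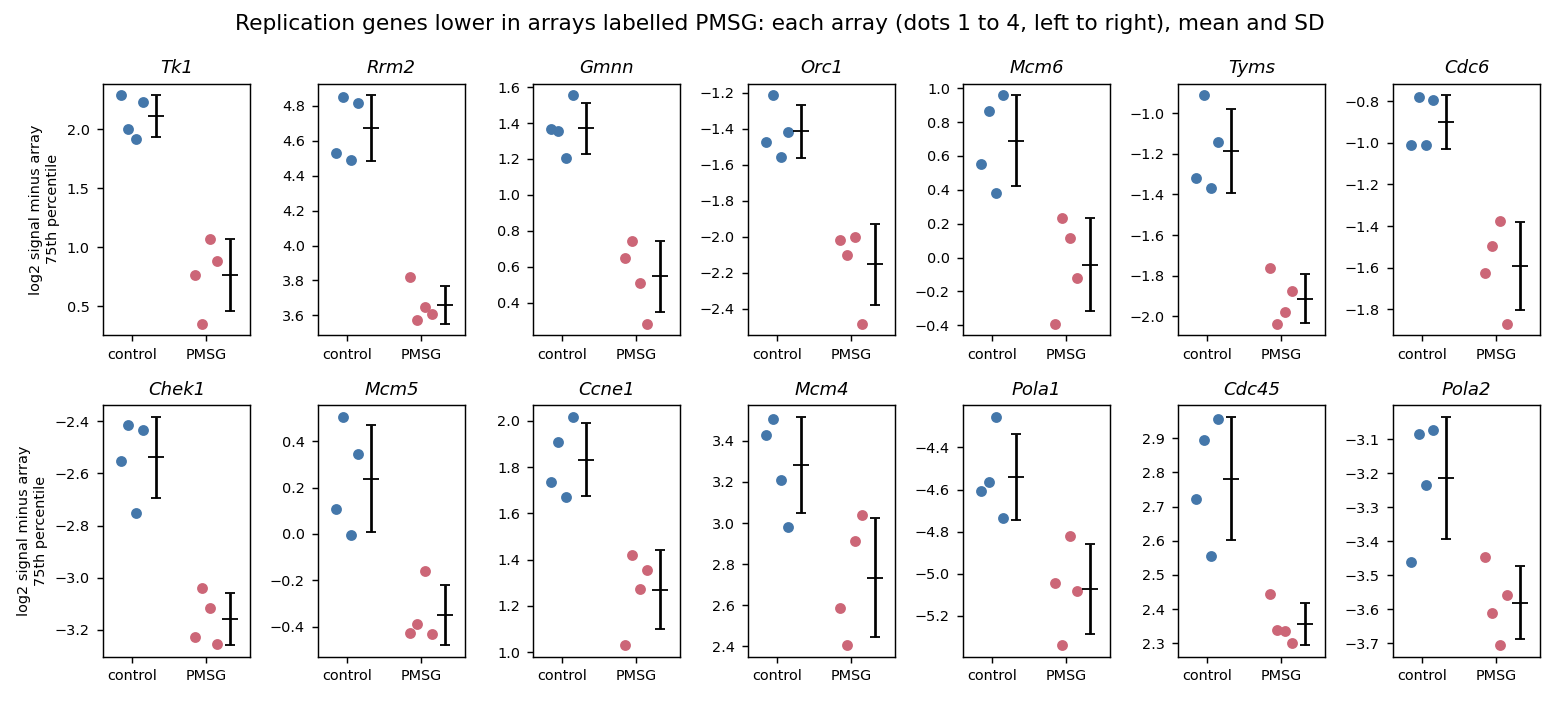
Level on each array (log2 signal minus the array's 75th percentile) of the 14 genes that were lower in arrays labelled PMSG, ordered by the size of the drop; blue dots are the 4 arrays labelled control and red dots the 4 labelled PMSG, in replicate order from left to right, and black bars give the mean and SD. The groups do not overlap in 12 of the 14 panels; in Mcm4 and Pola2 they do.

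Of the 5 genes of origin recognition and licensing, 3 were lower, among them both a loader and the inhibitor of loading. Gmnn encodes geminin, which binds CDT1 and prevents a second round of licensing. It read 1.37, 1.35, 1.21 and 1.56 in arrays labelled control and 0.65, 0.74, 0.51 and 0.28 in arrays labelled PMSG. All PMSG-labelled values were below the control-labelled ones, and Gmnn (chromosome 17, 47380221 to 47380280) was 1.77-fold lower (-0.82 log2, SE 0.13, limma adjusted p = 0.00198). Orc1, the largest subunit of the origin recognition complex, read -1.47, -1.21, -1.56 and -1.42 with the control label, and -2.02, -2.10, -2.001 and -2.48 with the PMSG label. Without overlap, Orc1 (chromosome 5, 129901584 to 129901643) was 1.67-fold lower (-0.74 log2, SE 0.14, limma adjusted p = 0.00439). Cdc6, which joins ORC to load the helicase, had control-labelled values of -1.01, -0.78, -1.01 and -0.80 and PMSG-labelled values of -1.63, -1.50, -1.37 and -1.87. It too was separated without overlap (chromosome 10, 87696993 to 87697052), at 1.62-fold lower (-0.69 log2, SE 0.13, limma adjusted p = 0.00450).

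Cdt1, the other loader and the target of geminin, and Orc6, another ORC subunit, did not pass. For Cdt1 the log2 difference was -0.30 with a 95% interval from -0.60 to -0.0029 (limma adjusted p = 0.107), and quantile normalization brought it past the threshold at -0.44 (adjusted p = 0.0332), as did median centring (0.0362), while other settings gave up to 0.406. Orc6 read -2.94, -2.78, -3.24 and -2.45 in arrays labelled control and -3.02, -2.80, -2.76 and -3.34 in arrays labelled PMSG. Its values overlapped widely, and the 95% interval of its difference ran from -0.58 to 0.33.

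Of the 6 subunits of the MCM ring, Mcm4, Mcm5 and Mcm6 were lower and Mcm2, Mcm3 and Mcm7 did not pass. Mcm6 read 0.55, 0.87, 0.38 and 0.96 with the control label and -0.39, 0.23, 0.11 and -0.12 with the PMSG label. Mcm6 (chromosome 13, 41052148 to 41052207) was 1.66-fold lower without overlap (-0.73 log2, SE 0.18, limma adjusted p = 0.0159), and the call was lost without arrays PMSG 3 and 4 (adjusted p = 0.0531). Mcm5 read 0.11, 0.50, -0.0047 and 0.35 in arrays labelled control against -0.43, -0.39, -0.16 and -0.43 in arrays labelled PMSG, again without overlap. Mcm5 (chromosome 19, 13998935 to 13998994) fell by 0.59 log2 units (SE 0.14, limma adjusted p = 0.0115). Mcm7, at 3.57, 3.92, 3.44 and 3.82 in arrays labelled control and 3.90, 3.85, 3.93 and 3.73 in arrays labelled PMSG, did not pass (log2 difference 0.16, 95% interval from -0.13 to 0.45). That interval lies wholly above the interval of Mcm6, from -1.15 to -0.31, although both proteins sit in the same ring; the difference between the genes was not tested.

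For Mcm4 and Mcm2 the call depended on the probe. The brighter Mcm4 probe read 3.43, 3.51, 3.21 and 2.98 on control-labelled arrays and 2.59, 2.41, 2.91 and 3.04 on PMSG-labelled arrays, where array PMSG 4 exceeded control 4. On chromosome 11, 87183282 to 87183341, this probe passed at -0.55 log2 (SE 0.18, limma adjusted p = 0.0447), but a dimmer Mcm4 probe had a log2 difference of 0.31 (adjusted p = 0.331) and the mean of both gave -0.12 (adjusted p = 0.439). The Mcm4 call was also lost when any of control arrays 1, 2 and 3 or PMSG arrays 1, 2 and 3 was left out, with adjusted p from 0.0533 to 0.116. It was lost as well with quantile normalization (0.112), the equal-variance test per probe (0.0723), no filter on dim probes (0.0582) and the replicate block (0.116). For Mcm2 the brighter probe did not pass (log2 difference -0.19, limma adjusted p = 0.286; chromosome 4, 122978031 to 122978090), whereas the dimmer one fell by 0.59 without overlap (adjusted p = 0.0118; 122981286 to 122981436). The Mcm2 probes are shown, 5′ to 3′ and with no part singled out in capitals, because they target different stretches of the same transcript and gave different calls.
Mcm2 brighter probe: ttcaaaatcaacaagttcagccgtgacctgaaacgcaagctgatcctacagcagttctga
Mcm2 dimmer probe: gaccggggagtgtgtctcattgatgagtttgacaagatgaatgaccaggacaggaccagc
Averaging both probes brought Mcm2 past the threshold (log2 difference -0.39, adjusted p = 0.0365) and did the same for Mcm3 (-0.40, adjusted p = 0.0370). Alone, the brighter Mcm3 probe had a log2 difference of -0.33 (adjusted p = 0.0551) with no overlap between groups, and the dimmer one -0.46 (adjusted p = 0.0580).

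**Figure D3:**
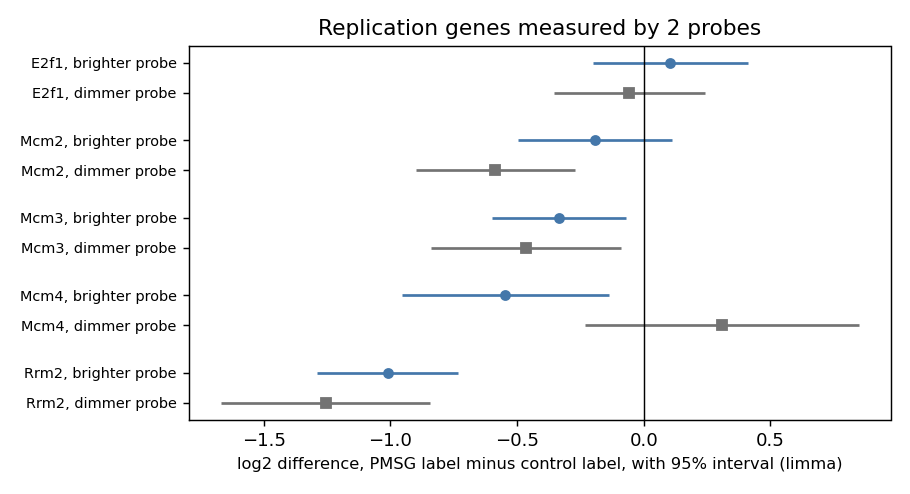
Log2 difference (PMSG label minus control label) with its limma 95% interval for the 5 genes measured by 2 probes; circles are the brighter and squares the dimmer probe of each gene. Both Rrm2 probes lie near -1, at -1.01 and -1.26, whereas the Mcm4 probes lie on opposite sides of 0, at -0.55 and 0.31.

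Of the helicase activators, Cdc45 was lower and Gins1, a GINS subunit, did not pass. Cdc45 read 2.72, 2.90, 2.56 and 2.96 in arrays labelled control and 2.44, 2.34, 2.33 and 2.30 in arrays labelled PMSG. Cdc45 was 1.34-fold lower without overlap (-0.43 log2, SE 0.11, limma adjusted p = 0.0196), a call lost without control array 2 or 4 (adjusted p = 0.0610 and 0.0580), without arrays PMSG 3 and 4 (0.0756) and with the replicate block (0.0555). Gins1 had a log2 difference of -0.19 with a 95% interval from -0.56 to 0.18, and its values ran from 0.69 to 1.21 with the control label and from 0.58 to 1.096 with the PMSG label.

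Among 7 genes of polymerases and primase, the calls fell on polymerase alpha, which starts each strand. Pola1, its catalytic subunit, read -4.61, -4.57, -4.26 and -4.74 in arrays labelled control and -5.04, -5.34, -4.82 and -5.08 in arrays labelled PMSG. Pola1 (chromosome X, 80651404 to 80651463) was 1.44-fold lower without overlap (-0.53 log2, SE 0.15, limma adjusted p = 0.0252). Pola2, its accessory subunit, on chromosome 1 (208579307 to 208579366), was 1.29-fold lower (-0.37 log2, SE 0.12, limma adjusted p = 0.0428), with control array 1 at -3.46 just under PMSG array 1 at -3.45. Pola1 lost its call when control array 1, 2 or 3 or PMSG array 1 or 2 was left out (adjusted p from 0.0502 to 0.0593), Pola2 when control array 2, 3 or 4 or PMSG array 1, 2 or 3 was (from 0.0512 to 0.116). Normexp background correction, which adds an offset that shrinks differences of dim probes, gave -0.12 for Pola1 (adjusted p = 0.417) and -0.18 for Pola2 (0.141). Pola2 was also lost without arrays PMSG 3 and 4 (0.132), with array weights (0.0504), without a filter on dim probes (0.0582) and with the replicate block (0.0966).

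The primase subunits and the extending polymerases did not pass. Prim1, the catalytic primase subunit, had a log2 difference of -0.39 (limma adjusted p = 0.223); array PMSG 3 read 1.84, near the control-labelled values of 1.26 to 1.89, while the other PMSG-labelled arrays read 0.87 to 1.02, and without array PMSG 3 it passed at -0.61 (adjusted p = 0.0238). Pole, the catalytic subunit of polymerase epsilon, stood at -0.34 (adjusted p = 0.0683) and passed without array PMSG 4 (0.0389) and with array weights (0.0356). Pold1, the catalytic subunit of polymerase delta, read 1.70, 2.02, 1.71 and 1.92 with the control label and 1.88, 1.84, 2.16 and 1.94 with the PMSG label, a log2 difference of 0.12 with a 95% interval from -0.16 to 0.39. Prim2 and Pold2 had intervals from -0.24 to 0.16 and from -0.26 to 0.20.

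No gene of the clamp or the clamp loader passed. Pcna, the sliding clamp that is often used as a marker of dividing cells, read 1.83, 1.88, 1.71 and 2.06 in arrays labelled control and 1.71, 1.79, 1.83 and 1.62 in arrays labelled PMSG. Its values overlapped, and the 95% interval of its log2 difference of -0.13 ran from -0.37 to 0.11, which ends short of the -0.5 that 12 of the 38 genes passed. Rfc4 read 0.21, 0.37, 0.10 and 0.37 with the control label and 0.05, 0.03, 0.05 and -0.21 with the PMSG label. Its groups did not overlap, but the log2 difference of -0.28 did not pass (limma adjusted p = 0.0797). Rfc4 passed under 1 of 22 alternatives (adjusted p = 0.0256). Rfc5 and Rfc3 had log2 differences of -0.17 and 0.06, and Rfc3 read 2.48, 2.59, 2.24 and 2.61 with the control label and 2.71, 2.42, 2.57 and 2.48 with the PMSG label, overlapping widely.

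The genes for single-strand binding and for joining of Okazaki fragments, the short pieces of the lagging strand, gave the same count of 0 of 4. Rpa1, the large subunit of the single-strand binding protein, had a log2 difference of -0.26 (limma adjusted p = 0.148), with values of -1.74, -1.42, -1.64 and -1.46 in arrays labelled control and -1.78, -1.72, -1.70 and -2.10 in arrays labelled PMSG. Rpa1 passed under 1 of 22 alternatives (adjusted p = 0.0369). Rpa2 stood at -0.24 (adjusted p = 0.107) and Fen1, the flap nuclease, at -0.13 (adjusted p = 0.401). Lig1, the ligase that seals the fragments, read 2.96, 3.24, 3.13 and 3.20 against 3.14, 3.19, 3.43 and 3.37, a log2 difference of 0.15 with a 95% interval from -0.11 to 0.40. Over the clamp, strand-binding and joining genes together, differences lay between -0.28 and 0.15.

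Of 4 genes that control entry into and passage through S phase, 2 were lower. Chek1, the kinase that restrains the cycle when replication stalls, read -2.55, -2.41, -2.75 and -2.43 in arrays labelled control and -3.23, -3.04, -3.12 and -3.25 in arrays labelled PMSG. Without overlap, Chek1 (chromosome 8, 37954886 to 37954946) was 1.54-fold lower (-0.62 log2, SE 0.11, limma adjusted p = 0.00340). Ccne1, the cyclin that drives cells into S phase, read 1.73, 1.91, 1.67 and 2.02 with the control label and 1.03, 1.42, 1.27 and 1.36 with the PMSG label, again without overlap. Ccne1 (chromosome 1, 90568197 to 90568256) was 1.48-fold lower (-0.56 log2, SE 0.13, limma adjusted p = 0.00995).

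The second E cyclin, Ccne2, did not pass, at -0.03 with a 95% interval from -0.48 to 0.42. E2f1, the transcription factor, read 0.82, 1.04, 0.69 and 1.05 in arrays labelled control and 0.81, 0.94, 1.25 and 1.01 in arrays labelled PMSG, a log2 difference of 0.10 on this probe and -0.06 on its other probe (limma adjusted p = 0.561 and 0.749). Uhrf1, which directs the maintenance methyltransferase to newly copied DNA, read -3.90, -3.58, -3.64 and -3.57 with the control label and -3.19, -3.22, -2.73 and -3.97 with the PMSG label. Array PMSG 4 was the lowest of all 8 and the other PMSG-labelled arrays lay above every control-labelled one. The log2 difference of 0.39 did not pass (limma adjusted p = 0.238), but without array PMSG 4 it was 0.62 (adjusted p = 0.0169) and without arrays PMSG 3 and 4 it was 0.46 (0.0365).

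Other genes of the same pathway, 55 in a list that excludes the 38, were examined beside them. Of 48 that could be tested, 29.2% were called in either direction, under the 34.5% of all genes tested. In arrays labelled PMSG, 11 of the 48 were lower and 3 higher, against 16.5% and 18% of all genes. Their median log2 difference was -0.18. The lowest was Rnaseh2a, a subunit of the nuclease that removes RNA from DNA, at -0.93 (SE 0.09, limma adjusted p = 2.74e-04). Others were Pole2 at -0.78 and Clspn, the partner of CHK1, at -0.76 (adjusted p = 0.0111 and 0.00537). The 3 higher ones were E2f7, a repressor of the E2F family, at 0.85, the epsilon subunit Pole3 at 0.33 and the clamp loader subunit Rfc1 at 0.32 (adjusted p = 0.0405, 0.0341 and 0.0307). The number of higher calls was 0 without control array 1, 3 or 4 and with the replicate block, and 1 without control array 2, without PMSG array 1, 2 or 3, without arrays PMSG 3 and 4 and with median centring. The count of 14 called was 6, 7 and 5 without control array 1, 2 or 4, 9 and 8 without PMSG array 1 or 3, 8 without arrays PMSG 3 and 4, and 5 with the replicate block.

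Mitosis markers, which mark the later part of the cycle, were lower in 8 of 19 cases and higher in 0. The share called was 42.1%, against 34.5% of all genes tested, of which 16.5% were called lower and 18% higher. The median log2 difference of the markers was -0.41. Tpx2, a spindle assembly factor, was lowest at -0.81, followed by the mitotic cyclins Ccnb1 and Ccnb2 at -0.65 and -0.64 and the kinase gene Aurka at -0.59 (limma adjusted p = 0.00392, 0.0197, 0.00559 and 0.0420). Their count fell to 5, 3 and 3 without control array 1, 2 or 4, to 5 without PMSG array 2, to 5 without arrays PMSG 3 and 4 and to 3 with the replicate block.

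**Figure D4:**
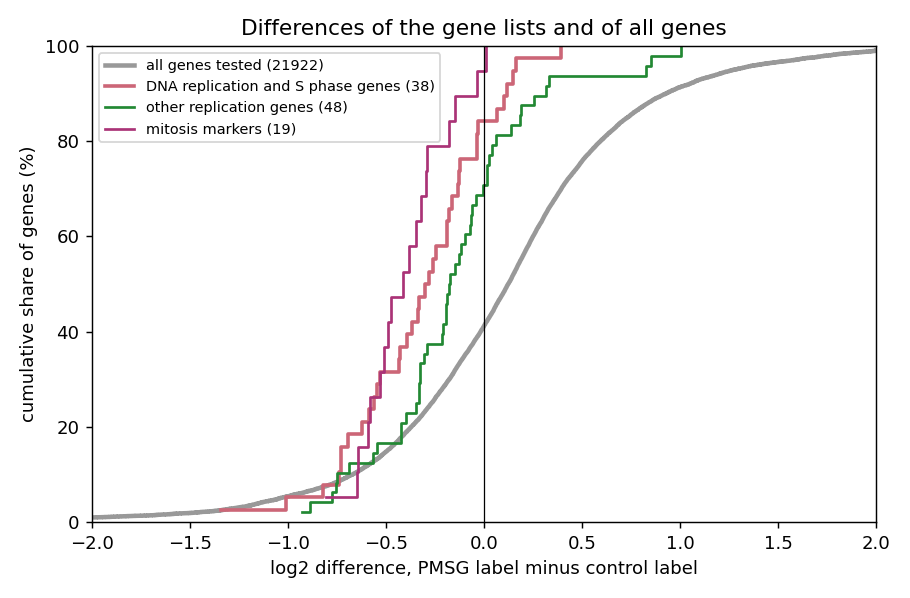
Cumulative share of genes (vertical axis, percent) by log2 difference, PMSG label minus control label (horizontal axis, limited to -2 to 2), for all 21922 genes tested, the 38 replication genes, 48 other replication genes and 19 mitosis markers. The medians of the 3 lists, -0.29, -0.18 and -0.41, lie left of the median of all genes, 0.12, while 2 of the 38 genes and 4.67% of all genes were called at a drop of at least 1.

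The replication genes also differed among the arrays labelled control. Slide row is taken here from the first of the digits that end each scan's name, and no label states it. For 31 of the 38 genes, arrays control 2 and 4 (row 1) read higher than arrays control 1 and 3 (row 2). The reverse held for 0. Over all genes tested, 14.7% had both row 1 arrays above both row 2 arrays and 25.7% the reverse. The median gap was 0.26 on the log2 scale over the 38 genes and -0.04 over all genes. The count was 33 with quantile normalization, where 21.8% of all genes had this order and 17.8% the reverse. It was also 33 with median centring, where all genes gave 29% and 13.7%. Mitosis markers showed the same order in 16 of 19 cases. In arrays labelled PMSG, row 1 (arrays 2 and 3) was above row 2 (arrays 1 and 4) for 10 of the 38 genes and below for 2. Mitosis markers went the other way, 1 above and 10 below. Of all genes tested, 12.8% were above and 10% below. With quantile normalization the 38 genes again gave 10 and 2. Median centring gave 5 and 4, near the 8.84% and 9.9% of all genes, and for mitosis markers 0 and 15. Whether slide position or the animals account for the order in the control-labelled arrays cannot be told apart.

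Each row holds 2 arrays of each label, so the comparison can be read within rows. All 14 genes that were lower had a difference below 0 in both rows. For the 12 whose groups do not overlap this was fixed in advance, so only Mcm4 and Pola2 could have differed. For Tk1 the difference was -1.41 in row 1 and -1.28 in row 2, and for Rrm2 -1.22 and -0.80. For Gmnn it was -0.83 and -0.82, and for Tyms -0.98 and -0.48. With slide row as a block, 12 of the 38 genes were called, all lower, and Mcm4 and Pola2 were lost (limma adjusted p = 0.0610 and 0.0607).

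**Figure D5:**
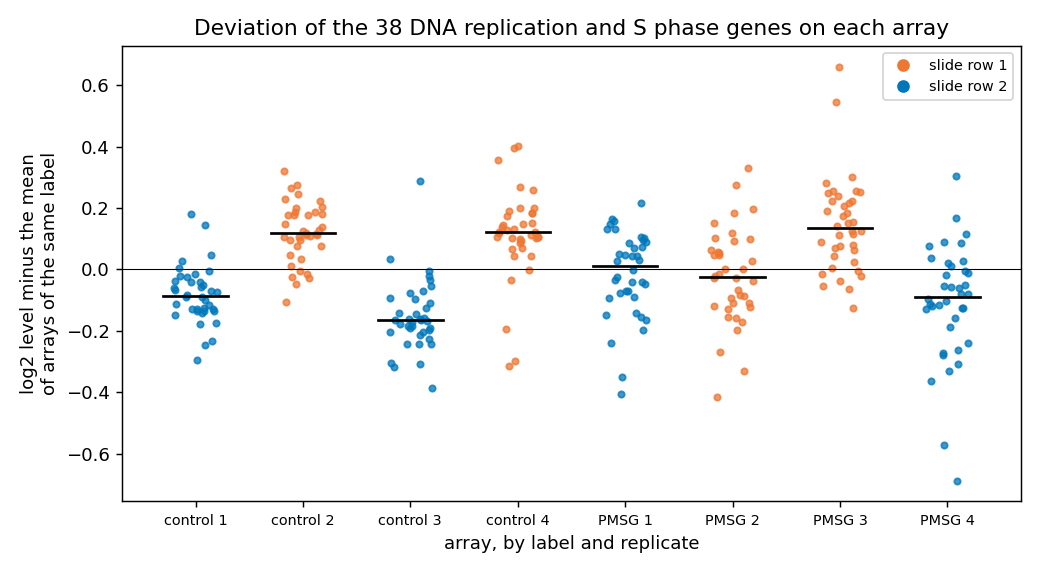
Log2 level of each of the 38 genes on each array minus the mean of the 4 arrays of the same label. Black lines are medians. Orange arrays lie in slide row 1 and blue arrays in row 2, as read from the scan names. On the control-labelled arrays 32 and 33 of 38 genes lie above 0 on the orange arrays 2 and 4, against 5 and 2 on the blue arrays 1 and 3; on PMSG-labelled arrays 1 to 4 the numbers are 19, 17, 31 and 10.

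Whole ovary mixes cell types, so a lower level can mean fewer cells of a type or less RNA per cell, and the bulk values cannot separate them. The tissue label was borne out by ovarian genes above background on all 8 arrays, among them Fshr, Foxl2, Inha, Cyp17a1 and Zp3. Markers of several cell types moved with the label. Over all genes tested, 16.5% were called lower and 18% higher. All 12 oocyte markers were higher in arrays labelled PMSG, H1foo most, at 2.22, and their mean level ran from -2.82 to -2.06 on control-labelled and from -1.12 to -0.44 on PMSG-labelled arrays. All 5 markers of luteinised cells were lower, with mean levels from 1.44 to 1.68 and from -3.26 to -2.03. The largest difference of the 5 was that of Akr1c3, listed under its synonym Akr1c18. It was above background on only 5 of 8 arrays, so that its size is uncertain. Ptgfr was above background on only 4 of 8 arrays, with means of -4.75 (control label) and -8.06 (PMSG label). The filter thus nearly fixed its lower call. Readings of Ptgfr and Akr1c3 near background enter the PMSG-labelled mean levels.

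Granulosa cell markers went both ways, 3 lower and 2 higher of 8, with Amh at 3.03, and their mean levels overlapped, from 0.41 to 1.12 in arrays labelled control and from 0.47 to 0.96 in arrays labelled PMSG. Theca cell marker Insl3 was higher, at 2.60, and Cyp17a1 did not pass. Leukocyte markers were higher in 4 of 10 cases, with mean levels from -2.24 to -1.56 and from -1.43 to -1.16. Cd79b, with the largest difference, 1.34, did not pass and was above background on only 4 of 8 arrays. The same held for Cd3e, at 1.19. Both enter the mean levels of the leukocyte markers, so the gap between those levels is uncertain. Endothelial markers were lower in 4 and higher in 1 of 9, with Tek at -1.20. Mean levels of the endothelial markers ran from -1.27 to -1.06 and from -1.61 to -1.41. Fibroblast and smooth muscle markers were higher in 4 of 9 cases, Dcn most, at 0.70, and epithelial markers in 4 of 7, Muc1 most, at 3.04. Of 4 red blood cell markers, Alas2 was lower, at -1.38, and 0 of 5 adipocyte markers passed with limma, also 0 at an unadjusted p under 0.05, with Retn highest at 1.203. The share called was 40% for leukocyte and 44.4% for fibroblast and smooth muscle markers, not far above the 34.5% of all genes tested. It was 62.5% for granulosa, 55.6% for endothelial, 57.1% for epithelial and 25% for red blood cell markers. The part of these cell types in the lower replication genes was not tested.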

How the data were processed

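Agilent Feature Extraction 11.5.1.1 produced each spot's intensity, per the file headers; it subtracted background and detrended the processed signal, and probes were placed on build rn4. A log2 table deposited by the authors equalled log2 processed signal less the array's 75th percentile up to a small shift, with uncentred probes, and served as an alternative; its columns' medians were -3.113, -3.194, -3.08 and -3.206 (control 1 to 4) and -2.875, -3.046, -2.816 and -3.198 (PMSG 1 to 4). Spot flags came with the deposited files. Of 58717 non-control spots per array 448 to 1073 were outliers and left out; 0 were saturated. Spots of 30367 probes were averaged on the log2 scale, 30350 were usable on all arrays, and each array's 75th percentile was subtracted. Probes well above background (at least 0.5 of spots) on at least 4 of 8 arrays were tested, 25303 in all, with limma 3.58.1 in R 4.3.3 (lmFit, eBayes, no covariates), adjusted over all of them by Benjamini-Hochberg with a threshold of 0.05. The procedure was tested on simulated data. The number of arrays, 4 per label, limits the precision.

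The genes and the lists were chosen with earlier results of these data known. Named in full were genes past the threshold with a log2 difference of at least 0.5 either way and the largest difference either way in each role; of other lists, the 4 largest called per direction, and of markers the tissue-defining ones and the largest of each list; a gene that the rule names is not reported here. Listed genes Mcm9, E2f2, Rnaseh2c, Msh6, Atr, Cenpe and Cyp19a1 were not analysed here, and Adgre1 was read as Emr1. Columns of other samples numbered 0. Alternatives covered background correction, normalization, filters, the variance model, weights, slide row, replicate number and left-out arrays. Whether replicate numbers pair the arrays could not be told.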

Additional observations from a re-analysis of the deposited data

Results flagged for a closer look

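Among 78 groups of 4 values examined for the replication genes and their median level, 3 held a lone array whose distance from its neighbour made up most of the spread. Chance gives about 1 in 20 such groups, here 3.9. Array PMSG 3 was apart for Mcm5, at -0.16 against -0.43 to -0.39 on the other arrays of its label (gap 0.843 of the range), and for Prim1, at 1.84 against 0.87 to 1.02 (gap 0.841). Array PMSG 4 was apart for Rfc4, at -0.21 against 0.03 to 0.05 (gap 0.912).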

How the results depend on the processing

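Of the 14 genes called lower, 10 kept the call whichever array was left out, and 9 kept it under all 20 alternatives other than the single slide rows. No called gene changed sign under any of 22 alternatives. For the 12 whose groups do not overlap, leaving arrays out or using 1 slide row could not turn the sign. Leaving out 1 array in turn gave counts of 10 to 16 in place of 14; it was 15 with quantile normalization, 19 with median centring, 12 with normexp background correction and 11 with the replicate block. The block moved other replication genes to 5 and mitosis markers to 3. Same-numbered control and PMSG arrays deviated together with correlations of 0.0444, 0.0361, 0.183 and -0.0192. Correlations of differently numbered arrays were not set beside these, so they cannot show whether replicate numbers pair the arrays. Differences lay below 0 for 37 of the 38 genes with median centring and 29 with quantile normalization. The median difference of all probes tested moved as well, from 0.114 to -0.054 with median centring and to 0.027 with quantile normalization.

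Slide row 1 alone, 2 arrays against 2, gave 3 of the 38 genes, 4 other replication genes, 4 mitosis markers and 3351 probes. Row 2 alone gave 0 of each with limma; at an unadjusted p under 0.05 it gave 11, 6, 0 and 6015. Fewer samples enter each. Without arrays PMSG 3 and 4, an alternative chosen after seeing the data, other replication genes numbered 8 and mitosis markers 5, and the equal-variance test per probe gave 5 mitosis markers. When 1 array was left out, other replication genes ran from 5 to 13, mitosis markers from 3 to 10, the median difference of the 38 genes from -0.35 to -0.24 and probes from 6552 to 11382.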
